A study of Homo sapiens with 2 samples.

Results

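The cells described here are HepaRG cells with many transcripts from the long arm of chromosome 8 (8q) for each transcript from its short arm (8p). For every cell, the UMIs (unique molecular identifiers, 1 for each captured transcript) of 13 8q genes and of 14 8p genes were summed, 1 was added to each sum, and the log2 of the 8q sum over the 8p sum was taken. The members were the 5% of cells with the highest value in each library: 221 of 4390 cells in library 1 and 257 of 4811 in library 2, or 478 of 9201 in all. They were compared with the 2198 and 2429 cells between percentiles 25 and 75 of the same value, called middle cells below. The members were chosen by these measured values, so their high 8q and low 8p levels on those 27 genes are a description and no result.

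HepaRG is an established human line from a liver tumour whose cells can take on hepatocyte-like and biliary-like features. Both libraries came from differentiated HepaRG cells kept for 7 days in culture and then given 0.1% DMSO, the solvent of the study's test chemicals, for 24 h. There was no treated group, and both libraries bear the same biological replicate number, so p-values measure the spread between these libraries only and not between independent cultures. Cells were dissociated, fixed and profiled by droplet sequencing of transcript 3′ ends.

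A human autosome has 2 arms joined at the centromere, and genes of 1 arm share little beyond their position. Loss of 8p together with gain of 8q is among the arm changes most often seen in hepatocellular carcinoma, and cultured tumour lines can hold cells of different karyotypes. DNA was not measured in these libraries, so all values below are RNA levels.

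Kept cells had a median depth of 17733 UMIs in library 1 and 10483 in library 2, and 6 barcodes occurred in both libraries. Members and middle cells had median depths of 18407 and 18256 UMIs in library 1, and of 9636 and 10872 in library 2. The median mitochondrial share was 10.6% in members and 8.72% in middle cells of library 1, and 10.9% and 8.96% in library 2. The part of depth and of the mitochondrial share in the differences below was not tested beyond the values given beside them.

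On the rule's own genes, the lowest member stood at 2.97 in library 1 and 3.00 in library 2, and the highest cell left out at 2.97 and 2.99, so the limit cuts a continuous range. The median value was 3.34 and 3.32 in members and 1.85 and 1.83 in middle cells. A median member had 92 UMIs of the 8q genes and 8 of the 8p genes in library 1, and 45 and 4 in library 2. A median middle cell had 64 and 17 in library 1, and 39 and 10 in library 2. With so few 8p UMIs in a cell, counting error can move single cells across the limit.

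The first independent measure was the share of all UMIs that came from chromosome 8 genes the rule did not use, 856 on 8q and 512 on 8p. The other 8q genes gave 2.66% of UMIs in members against 2.00% in middle cells of library 1, and 2.41% against 1.98% in library 2, which is 1.33 and 1.22 times the middle level. The other 8p genes gave 0.368% against 0.594% in library 1 and 0.439% against 0.586% in library 2, which is 0.620 and 0.75 times the middle level. Both arms therefore moved as the rule genes did, and more in the deeper library.

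Among the 5 bins, the largest step in these shares lay between the top 5% and the bin below it. That lower bin also held cells above the arm ratio limit described further on, 36 of 873 and 75 of 930. Cells between percentiles 75 and 95 of the rule value had 2.03% and 2.05% of their UMIs from other 8q genes, close to the 2.00% and 1.98% of middle cells. The lowest 5% of cells had 2.00% and 1.99%. For the other 8p genes the lowest 5% of cells had 0.640% and 0.611%, and cells between percentiles 75 and 95 had 0.571% and 0.551%.

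**Figure D1:**
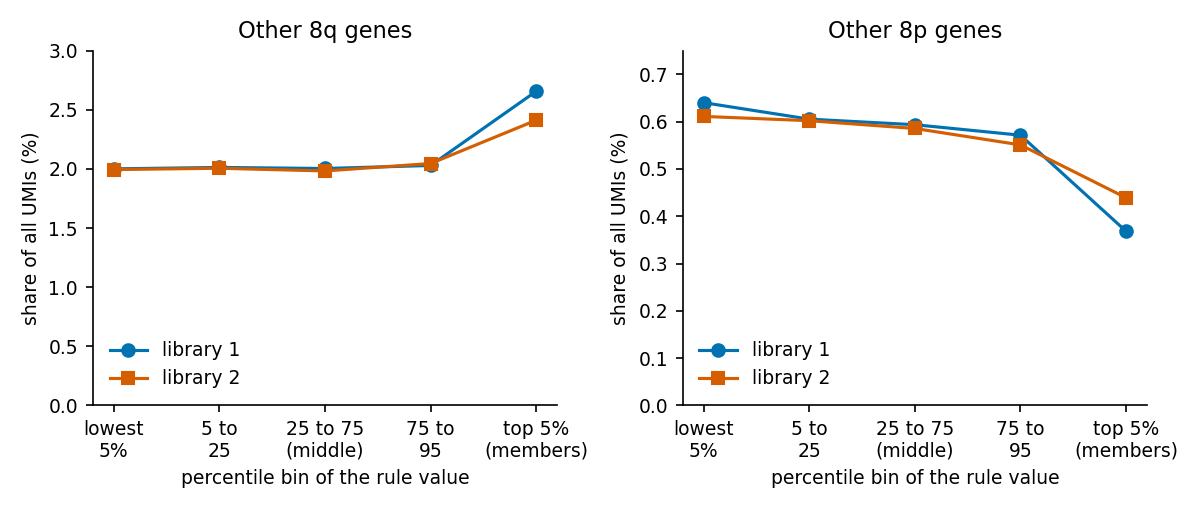
Share of all UMIs (percent, y axis from 0) from 8q genes (left) and 8p genes (right) outside the rule, in 5 percentile bins of the rule value (x axis), with 1 line for each library. In members the 8q share is 2.66% and 2.41% and the 8p share 0.368% and 0.439%, while the other 4 bins of 8q lie between 1.98% and 2.05%.

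Cells were also chosen on 1 arm of the rule genes alone. The 5% of cells richest in the 13 8q genes per UMI had 0.405% and 0.443% of their UMIs from the 8p genes outside the rule, against 0.590% and 0.581% in the middle of that ranking. The 5% poorest in the 14 8p genes had 2.44% and 2.25% from the 8q genes outside the rule, against 2.01% and 2.00%. These choices share cells with the members: 109 of 220 and 88 of 241 cells of the first choice were members, and 146 of 220 and 166 of 241 of the second.

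Gene by gene, UMIs were summed over the cells of each bin and library and fitted with edgeR's quasi-likelihood test (adjusted p under 0.05 by Benjamini-Hochberg over all genes). Of 17078 genes tested outside the rule, 1240 (7.26%) were called higher in members than in middle cells and 1192 (6.98%) lower. Of the 425 other 8q genes tested, 202 were called higher and 5 lower, with a median log2 fold change of 0.40 over all 425. Of the 200 other 8p genes tested, 96 were called lower and 1 higher, with a median of -0.54. Outside chromosome 8, 1037 of 16453 genes were higher and 1091 lower, with a median of 0.00. DESeq2 called 831 (4.87%) of all genes higher and 726 (4.25%) lower, and among them 153 8q genes higher and 75 8p genes lower. When every cell was thinned to 4000 UMIs and members were chosen anew, edgeR called 17 8q genes higher and 3 8p genes lower, with medians of 0.14 and -0.16. With library 1 left out the 8q and 8p medians were 0.26 and -0.34, and with library 2 left out 0.31 and -0.50, both on the log2(CPM + 2) scale, which understates the change of low genes.

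In separate libraries, 306 of the 425 8q genes were above the middle level in both, against 27.5% of all genes tested, and 159 of the 200 8p genes were below it in both, against 37.7%. Levels below are in CPM, a gene's UMIs scaled to the total UMIs of its group of cells, and since 3′ ends were counted they are not divided by gene length. Among genes of at least 50 CPM, 100 of 111 8q genes were higher and 0 lower, and 31 of 37 8p genes were lower. Of all 4115 tested genes of that level, 585 were higher and 563 lower. EXT1, which builds heparan sulfate chains, was an abundant 8q gene that was not called, at 632 and 526 CPM in members and 590 and 566 CPM in middle cells. It was named after its values were seen.

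No other arm moved as far. Across the 39 other arms with enough genes, the median log2 fold change ran from -0.10 on 18p to 0.06 on Xp.

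**Figure D2:**
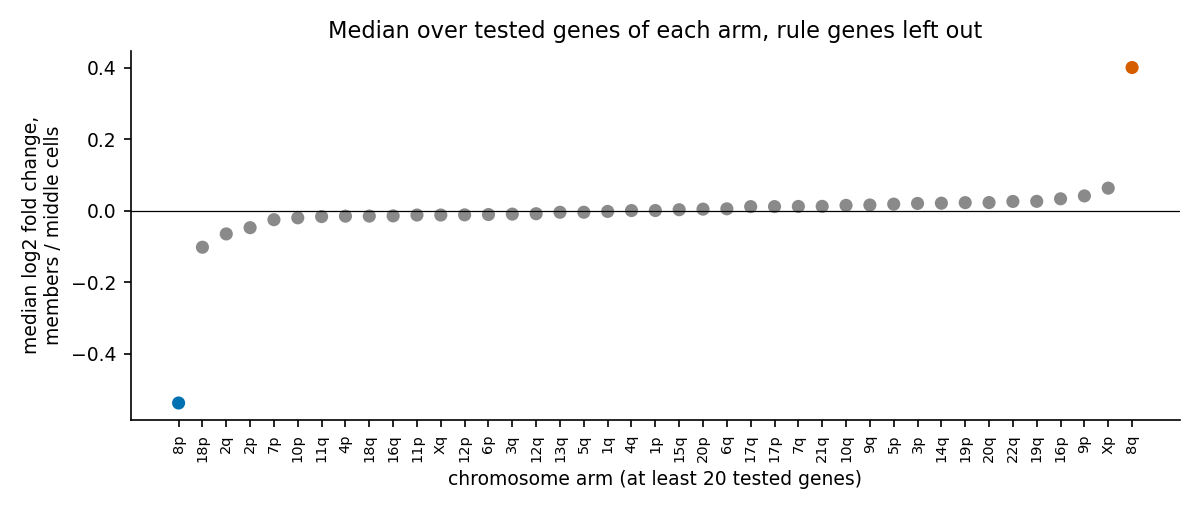
Median log2 fold change of members over middle cells (y axis) for each of 41 chromosome arms (x axis, in order of the median), rule genes left out. The 8p arm at -0.54 and the 8q arm at 0.40 stand outside the range of the 39 others, -0.10 to 0.06.

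The shift ran along the whole of both arms. In 10 consecutive windows of 20 genes on 8p, the median log2 fold change lay between -0.64 and -0.44. In 21 windows on 8q it lay between 0.24 and 0.58. The first 8q window, next to the centromere, had the smallest 8q median, and window 20, near the 8q end, the largest.

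**Figure D3:**
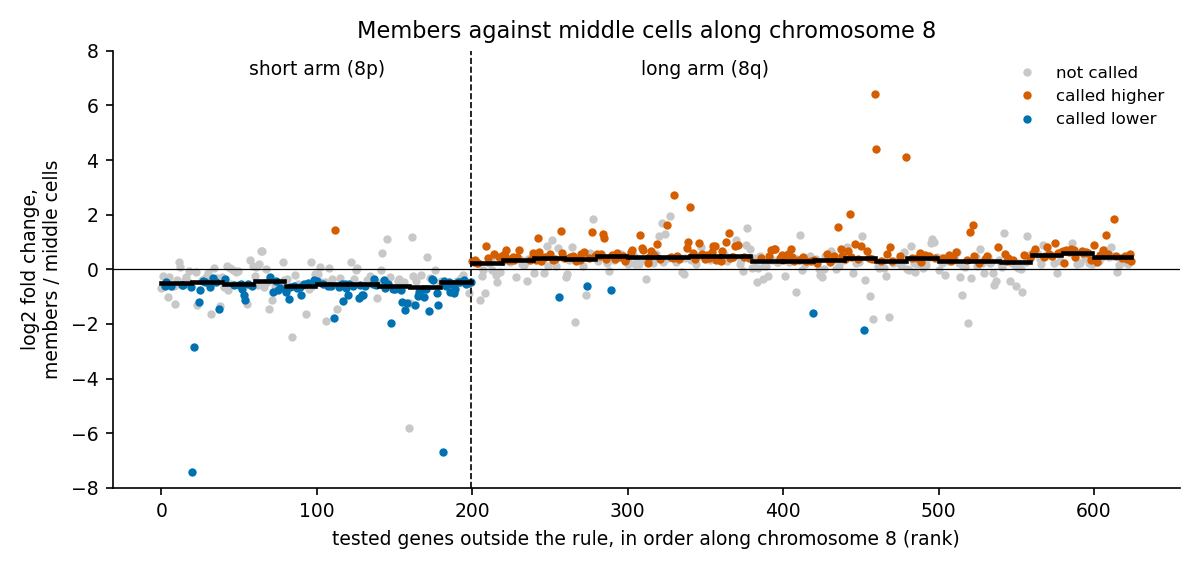
Log2 fold change of members over middle cells (y axis) for each tested chromosome 8 gene outside the rule, in order from the 8p end to the 8q end (x axis, rank), coloured by edgeR call; black bars are medians of windows of 20 to 25 genes. All 10 bars of 8p lie below 0, between -0.64 and -0.44, and all 21 bars of 8q lie above 0, between 0.24 and 0.58.

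The 8q genes that rose included housekeeping genes with modest shifts. Among 89 tested genes of a list of 8q genes, 65 were higher and 0 lower, with a median log2 fold change of 0.38. RPL8, a protein of the large ribosomal subunit, stood at 2211 and 2043 CPM in members and 1614 and 1697 CPM in middle cells, a log2 fold change of 0.40 ± 0.06 (SE; edgeR adjusted p = 4.58e-05). RPL30, of the same subunit, stood at 1994 and 1754 CPM against 1481 and 1514 CPM. RPS20, of the small subunit, stood at 1101 and 945 CPM against 854 and 806 CPM. In each of these genes both member libraries were above both middle libraries.

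A list of translation genes elsewhere did not share this. Of 22 translation genes on other chromosomes, 1 was higher (EIF3K, a subunit of translation factor eIF3, at 0.28 ± 0.06) and 0 lower, with a median of 0.03. Of 25 lysosome genes on other chromosomes, 2 were higher and 2 lower, with a median of 0.01. Over all genes tested, 7.26% were called higher and 6.98% lower, so counts of 1 or 2 in these lists are near that share. NPC2, which carries cholesterol out of lysosomes, was lower at -0.26 ± 0.06, and CTSL, a lysosomal protease, was higher at 0.23 ± 0.06. Within cluster 4, described further on, EIF3K was at -0.014 and CTSL at -0.24, and neither was called.

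Of 84 tested genes of a list of 8p genes, 0 were higher and 55 lower, with a median log2 fold change of -0.56. TUSC3, a subunit of the complex that attaches sugars to new proteins, stood at 126 and 151 CPM in members and 235 and 226 CPM in middle cells (-0.72 ± 0.07; edgeR adjusted p = 7.00e-08). NRG1, a ligand of ERBB receptors, stood at 99.4 and 107 CPM against 176 and 173 CPM. GSR, which regenerates reduced glutathione, stood at 91.4 and 108 CPM against 147 and 141 CPM, a fall that turned to 0.016 on the log2 scale in thinned cells and to 0.047 outside cluster 4, which is described further on. FDFT1, the squalene synthase of cholesterol synthesis, stood at 99.6 and 127 CPM against 142 and 148 CPM. In all 4 genes both member libraries were below both middle libraries.

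A few genes of each arm went much further than the arm. CDCA2, a chromatin regulator of mitosis on 8p, stood at 21.8 and 31.5 CPM against 58.2 and 60.1 CPM (-1.17 ± 0.12). Within cluster 4, a cluster of cells described further on, CDCA2 went the other way, at 0.35 ± 0.32, and was not called. AF279873.3, a long noncoding RNA on 8p, stood at 57.0 and 77.6 CPM against 158 and 147 CPM (-1.20 ± 0.10). TEX15, known from meiosis in the germ line, stood at 2.36 and 3.93 CPM against 12.6 and 10.8 CPM (-1.97 ± 0.26).

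On 8q, EYA1, a transcriptional coactivator of development, stood at 51.2 and 41.1 CPM in members against 23.6 and 19.6 CPM in middle cells (1.14 ± 0.11). LINC01419, a long noncoding RNA, stood at 67.4 and 52.6 CPM against 13.4 and 12.2 CPM (2.29 ± 0.12). FABP5, a fatty acid carrier, stood at 13.1 and 14.3 CPM against 2.01 and 2.27 CPM (2.71 ± 0.20). GPT, the alanine aminotransferase of hepatocytes, stood at 14.6 and 16.8 CPM against 5.17 and 8.75 CPM. Unlike the other 3, GPT was not highest in the cells with the high arm ratio described further on: it was at 16.9 and 19 CPM in members below that ratio's limit, 13.6 and 14.2 CPM in members above it, and 0.965 and 10.5 CPM in other cells above it.

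The exceptions were few. The 5 8q genes that fell were NCALD, a neuronal calcium sensor (3.43 and 7.15 CPM against 15.3 and 14.3 CPM), TRIM55, a muscle ubiquitin ligase, KCNB2, a potassium channel, and the noncoding AC083967.1 and LINC01608. The 1 8p gene that rose was NEFL, a neurofilament protein, at 11.8 and 5.36 CPM in members, a log2 fold change of 1.43 ± 0.23. LINC01608 and NEFL were named after their values were seen.

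The marker genes of these cells were SLC30A8 and PTPRD. SLC30A8 encodes a zinc transporter best known from the insulin granules of pancreatic beta cells, and lies on 8q outside the rule (GRCh38, chromosome 8, 116950273 to 117176714). It stood at 112 and 90.8 CPM in members and at 4.98 and 4.81 CPM in middle cells, a log2 fold change of 4.42 ± 0.14 (SE; edgeR adjusted p = 1.87e-15). The shift is far above the arm median of 0.40. Its neighbours on 8q, named after their values were seen, varied. RAD21, a cohesin subunit and rule gene on one side, was at 192 and 166 CPM against 167 and 167 CPM, and MED30, a Mediator subunit on the other, at 13.9 and 15.7 CPM against 13.9 and 13.8 CPM. AARD, the nearest gene, was scarce and also called higher, at 2.14 and 1.43 CPM against 0.0229 and 0 CPM, a larger fitted log2 fold change than that of SLC30A8 but one that depends on the prior count.

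PTPRD encodes a receptor-type tyrosine phosphatase and lies on another chromosome (GRCh38, chromosome 9, 8314246 to 10612723). It stood at 113 and 91.9 CPM in members and 12.3 and 13.5 CPM in middle cells (3.07 ± 0.12; edgeR adjusted p = 3.93e-14). A UMI of SLC30A8 was found in 48.9% and 30.4% of members and in 7.55% and 4.28% of middle cells. After each cell was thinned to 4000 UMIs these shares were 24.9% and 18.7%, and 1.87% and 1.98%. The part of free RNA in the share of middle cells was not tested.

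The label did not hold for every member. For each cell the arm ratio was computed again from the chromosome 8 genes outside the rule, as log2 of their 8q UMIs over their 8p UMIs with 1 added to each. In middle cells this ratio had a single peak with medians of 1.78 and 1.76. In members it had 1 peak near the middle level and another above 3, and 8 and 16 members lay within 0.2 of 2.6. A limit of 2.6 was set in the gap after the distribution was seen. At or above it lay 133 of 221 members of library 1 (60.2%, exact 95% binomial interval 53.4% to 66.7%) and 96 of 257 of library 2 (37.4%, 31.4% to 43.6%). Of the middle cells, 11 of 2198 and 24 of 2429 did. Intervals cover counting error only.

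**Figure D4:**
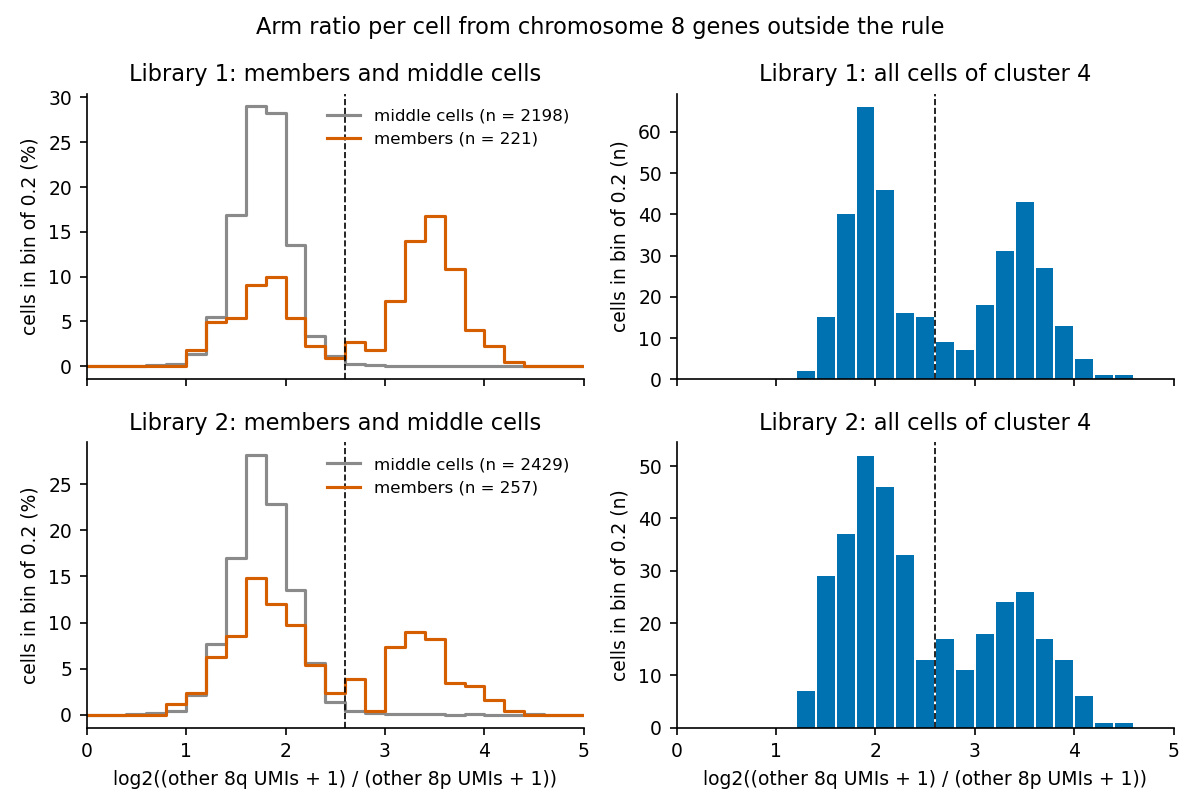
Histograms of the arm ratio from chromosome 8 genes outside the rule (x axis, log2, bins of 0.2) for library 1 (top) and library 2 (bottom); left, members and middle cells as a percent of each group; right, number of cells of cluster 4; the dashed line marks 2.6. Members fall into 1 group near the middle cells and 1 above 3, with 60.2% and 37.4% at or above the line.

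Depth moved with this share. Among members at or above their library's median depth, 79.5% in library 1 and 57.8% in library 2 were above the limit, and among shallower members 36.4% and 22.3%. Over all kept cells, 184 of 4390 (4.19%) and 202 of 4811 (4.20%) were above it, and members were 72.3% and 47.5% of those. At the limit of 2.6, the share of all cells above it was thus nearly the same in the libraries. The rule found fewer of those cells in the shallower library. The near match of the shares depended on the limit, which was set after the distribution was seen. With a limit of 2.4 the shares were 5.35% in library 1 and 5.80% in library 2. With a limit of 2.8 they were 3.69% and 3.20%.

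Members on either side of the limit differed in the arm shares. Above it, the other 8q share was 2.96% and 2.93%, which is 1.48 and 1.48 times that of middle cells below the limit, and the other 8p share was 0.275% and 0.281%, which is 0.462 and 0.479 times. The same genes set the limit, so these values are a description with no test. Members below the limit had 1.98% and 1.98% from other 8q genes and 0.581% and 0.571% from other 8p genes, near the levels of middle cells.

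Genes of other chromosomes entered neither ratio; those given here were chosen for their difference between members and middle cells. PTPRD was at 159 and 181 CPM in members above the limit and at 8.43 and 17.7 CPM in members below it. In cells above the limit that were not members it was at 133 and 131 CPM, and in middle cells below it at 12.1 and 13 CPM. AC026116.1, a long noncoding RNA of chromosome 12, was at 116 and 105, at 1.40 and 9.84, at 95.5 and 84.1, and at 6.74 and 6.29 CPM in these 4 groups. EDN3, which encodes endothelin 3, was at 22.2 and 22.8, at 0.702 and 3.28, at 18.3 and 19.5, and at 1.10 and 1.62 CPM. In each gene the cells above the limit, members or not, lay together and far above both groups below it. Of members below the limit, 96.6% and 91.3% lay outside cluster 4, described further on, so this contrast also sets clusters apart. In cluster 4 cells below the limit, AC026116.1 was at 70.7 and 64.9 CPM. In cells above the limit outside cluster 4, it was at 45.4 and 39.2 CPM.

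Genes of other chromosomes that fell in members did not all follow the limit. TEX11, a meiosis gene of the X chromosome, was at 7.70 and 7.86 CPM in members above the limit and 28.9 and 25.5 CPM in other cells above it. In members below the limit it was at 97.6 and 98.4 CPM, and in middle cells below it at 169 and 158 CPM. Within cluster 4, TEX11 was not called, at 4.26 and 5.25 CPM in members and 7.14 and 18.6 CPM in middle cells. IGFL2-AS1 was at 59.8 and 48.0 CPM in other cells above the limit and 22.5 and 41.3 CPM in members below it. SLC30A8, which is among the 8q genes of the arm ratio, was at 159 and 193 CPM in members above the limit and at 2.81 and 5.25 CPM in members below it, the latter at the level of middle cells.

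**Figure D5:**
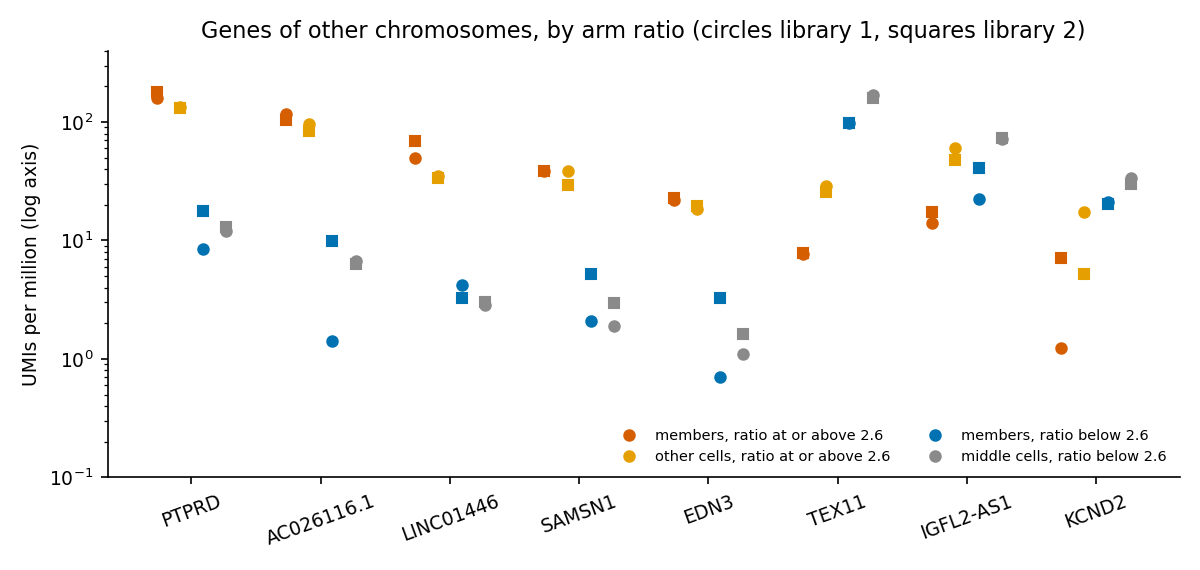
CPM (y axis, log scale) of 8 genes outside chromosome 8 in 4 groups of cells set by membership and by the arm ratio limit of 2.6, with 1 point for each library. PTPRD, AC026116.1, LINC01446, SAMSN1 and EDN3 are high in both groups above the limit, for PTPRD 131 to 181 CPM, and low in both groups below it, for PTPRD 8.43 to 17.7 CPM. TEX11 runs the other way. IGFL2-AS1 does not split by the limit, at 59.8 and 48.0 CPM in other cells above it and 22.5 and 41.3 CPM in members below it. In cluster 4 cells below the limit, not drawn, AC026116.1 is at 70.7 and 64.9 CPM and SAMSN1 at 14.7 and 35.0 CPM. In cells above the limit outside cluster 4, not drawn apart, AC026116.1 is at 45.4 and 39.2 CPM and SAMSN1 at 5.93 and 4.05 CPM. PTPRD is at 81.0 and 62.2 CPM there.

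Members below the limit had other traits. Of 28 respiratory chain genes on other chromosomes, 22 were higher and 0 lower in all members, with a median log2 fold change of 0.23. The rule's 8q genes include UQCRB, COX6C, NDUFB9 and CYC1, which also encode respiratory chain proteins. The choice of members is therefore not independent of this list, and its rise is a description. Their summed level was 15661 and 14467 CPM in members below the limit, 11215 and 11336 CPM in members above it, and 10928 and 11296 CPM in middle cells below it. UQCRB, a complex III subunit among the rule's 8q genes, was high in members on either side of the limit, at 971 and 915 CPM below it and 907 and 899 CPM above it, against 577 and 594 CPM in middle cells below it. LAPTM4B, a lysosomal membrane protein among the rule's 8q genes, was at 46.4 and 41.3 CPM in members below the limit, 43.9 and 44.1 CPM in middle cells and 82.5 and 77.0 CPM in members above it. The median mitochondrial share was 12.2% and 11.5% in members below the limit and 9.38% and 9.51% in members above it.

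Hepatocyte markers also differed. Of 14 tested, 9 were higher in all members and 1 lower (CPS1, the first enzyme of the urea cycle, at -0.53 ± 0.17), with a median log2 fold change of 0.63. ORM1, a plasma acute-phase protein, was at 851 and 1462 CPM against 528 and 653 CPM (0.98 ± 0.12), and APOB, the core protein of liver lipoproteins, at 581 and 723 CPM against 428 and 454 CPM (0.59 ± 0.08). Albumin (ALB) was at 1620 and 4030 CPM against 1477 and 1853 CPM (0.76 ± 0.21), so most of its difference came from library 2, and within cluster 4 it was at -0.24 and not called. The summed level of the list was 6722 and 8914 CPM in members below the limit and 3492 and 4256 CPM in middle cells below it. In members above the limit it was 3200 CPM in library 1 and 8418 CPM in library 2, and these libraries did not go the same way.

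Of 15 tested proliferation genes, 0 were higher and 9 lower, with a median of -0.38, and within cluster 4 described below their direction was the reverse. TOP2A, the topoisomerase of dividing cells, was at 338 and 319 CPM against 485 and 461 CPM over all cells (-0.49 ± 0.08), and within cluster 4 at a log2 fold change of 1.27 ± 0.21. Of 10 tested mesenchymal genes, 0 were higher and 6 lower, with a median of -0.68. POSTN, a matrix protein, was at 232 and 217 CPM against 431 and 412 CPM (-0.87 ± 0.07). Of 6 tested biliary genes, KRT19, a keratin of bile ducts, was lower (340 and 340 CPM against 631 and 639 CPM) and SPP1, osteopontin, higher (1.17 ± 0.27), though at -0.18 and not called within cluster 4. Of the tested endothelial and immune markers, edgeR called 0 of 4 and 0 of 3. The endothelial list summed to 29.98 and 38.97 CPM in members and 31.3 and 27.9 CPM in middle cells, with CLEC4G at 0, and the immune list to 14.8 and 14.7 CPM against 17.6 and 16.5 CPM.

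The study's wider subject is the response of these cells to stress. Of 20 p53 targets, 5 were higher and 2 lower. MDM2, the ubiquitin ligase that restrains p53, was at 1155 and 1056 CPM against 916 and 873 CPM (0.34 ± 0.05), and CDKN1A, the cell cycle inhibitor p21, at 382 and 341 CPM against 318 and 320 CPM (0.22 ± 0.06). This list holds TP53INP1 on 8q, which rose, and TNFRSF10B on 8p, which fell (-0.37 ± 0.09). Of 19 oxidative stress genes, 5 were higher and 6 lower, of 16 integrated stress genes 1 and 3, of 18 unfolded protein genes 1 and 0, of 17 heat shock genes 1 and 0, and of 18 hypoxia genes 1 and 1. Over all genes tested, 7.26% were called higher and 6.98% lower, so a count of 1 in these lists is near that share. SLC7A11, the cystine importer, fell from 120 and 113 CPM to 69.2 and 79.4 CPM (-0.63 ± 0.08), while within cluster 4 it was at 0.22 ± 0.15 and not called. There, 6 of 14 tested integrated stress genes were higher and 0 lower, with a median of 0.43. Over all cells these list medians lay between -0.04 and 0.09. Within cluster 4, 0 of 20 p53 targets were higher and 1 lower, with a median of 0.05. Outside it, 2 of 20 were higher and 4 lower. The p53 list summed to 4799 and 4867 CPM in members above the arm ratio limit. In members below the limit it summed to 3688 and 3656 CPM, and in middle cells below it to 4092 and 4067 CPM.

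Genes of several other chromosomes were among those with the largest change. AL353595.1, a long noncoding RNA on the same arm of chromosome 9 as PTPRD (11618530 to 12058227), stood at 21.4 and 20.4 CPM in members and 0.160 and 0.367 CPM in middle cells (6.41 ± 0.32). SLC25A36, a mitochondrial pyrimidine nucleotide carrier, stood at 21.6 and 13.2 CPM against 0.252 and 0.501 CPM (5.67 ± 0.34). PAGE2B and CT55, cancer-testis genes of the X chromosome, rose by 4.30 ± 0.31 and 4.20 ± 0.27 on the log2 scale. Among genes that fell, CACNA1C, a calcium channel subunit, was at 5.14 and 6.44 CPM against 22.1 and 20.8 CPM (-1.90 ± 0.18), and KCND2, a potassium channel, at 7.28 and 14.3 CPM against 33.4 and 29.7 CPM (-1.65 ± 0.18). Within cluster 4, CACNA1C was also called lower (-2.38 ± 0.38). KCND2 was not called there, with 1 and 6 UMIs in members and 8 and 17 in middle cells.

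Clustering the cells without any chromosome 8, mitochondrial or ribosomal protein gene gave 9 clusters, and members gathered in cluster 4. This cluster held 355 and 351 cells and was led by AC026116.1, LINC02306, SAMSN1 (a signalling adaptor of immune cells), AL591501.1 and PTPRD. Chosen here as the cluster with the highest PTPRD, it was not given a cell type name. It took in 56.6% (49.7% to 63.2%) and 33.5% (27.7% to 39.6%) of members and 4.91% (4.05% to 5.90%) and 4.65% (3.85% to 5.57%) of middle cells. Of members above the arm ratio limit it took in 91.7% and 75%, and of members below it 3.41% and 8.70%.

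Cluster 4 was itself split by the arm ratio. In library 1, 155 of its cells were at or above 2.6 and 200 below it, and in library 2, 134 and 217. Within cluster 4 PTPRD was at 162 and 193 CPM in cells above the limit and 38.1 and 46.5 CPM in cells below it, against 10.7 and 11.7 CPM in cells below the limit outside the cluster. AC026116.1 was at 120 and 116, at 70.7 and 64.9, and at 4.14 and 3.74 CPM in these 3 groups. SAMSN1 was at 43.2 and 45.6, at 14.7 and 35.0, and at 1.03 and 0.931 CPM. Outside the cluster, 29 and 68 cells were above the limit. They had PTPRD at 81.0 and 62.2, AC026116.1 at 45.4 and 39.2 and SAMSN1 at 5.93 and 4.05 CPM. For PTPRD this was above cluster 4 cells below the limit, and for AC026116.1 and SAMSN1 it was below them. Between members and middle cells of the cluster, SAMSN1 was not called, while AC026116.1 (0.77), LINC01446 (1.45) and EDN3 (1.90) were higher. DACH1, a developmental transcription factor, did not divide the cluster: it was at 79.2 and 95.5 CPM above the limit and 71.0 and 103 CPM below it, and at 7.05 and 9.42 CPM in cells below the limit outside the cluster.

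Members were next compared with middle cells inside cluster 4, a comparison added after the data were seen. Of 11873 genes tested, 309 (2.6%) were higher and 282 (2.38%) lower by edgeR. Of 302 other 8q genes, 70 were higher and 4 lower, with a median log2 fold change of 0.42. Of 131 other 8p genes, 70 were lower and 0 higher, with a median of -0.89. The other 8q share was 2.97% and 2.89% in members and 2.16% and 2.16% in middle cells of the cluster, and the other 8p share 0.276% and 0.304% against 0.568% and 0.541%.

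Inside cluster 4, SLC30A8 stood at 166 and 188 CPM in members and 18.1 and 20.8 CPM in middle cells (3.18 ± 0.18; edgeR adjusted p = 2.39e-09), and PTPRD at 164 and 190 CPM against 47.6 and 48.1 CPM (1.87 ± 0.16). Outside cluster 4 the arm shift was small: the median log2 fold change was 0.13 for 414 8q genes (47 higher and 7 lower, with 5.56% and 5.21% of all genes called in each direction) and -0.11 for 202 8p genes (8 higher and 18 lower). There, 28 of 28 respiratory chain genes and 11 of 14 hepatocyte genes were higher and 0 of either lower, while inside the cluster 1 of 28 and 2 of 12 were higher, and 0 and 2 lower. The respiratory chain list is not independent of the rule, which holds respiratory chain genes of 8q. These differences between the inside and the outside of the cluster were not tested themselves.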

How the data were processed

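The deposited files hold raw UMI counts for each barcode and gene, made by the authors with Cell Ranger 7.0.0, per the file headers; STAR and GRCh38 are named in the submitters' processing notes, and the treatment of intronic reads is not given in the sources used here. The 12 antibody features held 0 UMIs and were not used. A barcode was kept if it had 500 or more genes, 4000 or more UMIs and no more than 25% of its UMIs from mitochondrial genes, which left 4390 of 4591 and 4811 of 4998. Positions came from GENCODE 29, which matched 34616 of 36601 gene IDs. Scrublet called 2 and 0 barcodes, so it did not work as a doublet filter. No correction for free RNA was made.

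Members and gene lists were chosen with earlier results of these data known. Counts were summed over 5 bins of the rule value in 2 libraries (10 sums) and fitted with edgeR 4.0.16 (quasi-likelihood, TMM, filterByExpr, library as a block, 4 residual degrees of freedom). Titles number the libraries, and bins of 1 library share that library, which is the source of the block. SE is the log2 fold change over the square root of F. Ratios at or near 0 counts depend on the prior count. Named genes were the 12 largest changes each way at 10 CPM or more, up to 8 each way in either arm of chromosome 8 and within cluster 4 (outside chromosome 8), and up to 4 called genes of each list. The same direction in both libraries was required of these genes, except for the genes of lists. CPS1, TP53INP1, TNFRSF10B and DACH1 were named after their values were seen. Clustering used 2000 variable genes, 30 components, 15 neighbours and Leiden resolution 0.5 in scanpy 1.11.5.

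The fit was tested on simulated data for members against middle cells. Of 50 genes each simulated at a fold of 1.25, 1.5, 2 and 4, edgeR found 18, 42, 49 and 50, with 6 false calls among 16869 genes. DESeq2 1.42.0 found 11, 33, 48 and 50, with 0 false calls. Whether these figures carry over to the measured libraries, where members were chosen by their own counts, was not tested. Alternatives were DESeq2, library totals, no filter, no block, other comparison cells, other depth, member, mitochondrial and doublet limits, the value without CTSB, each library left out, and, added after seeing the data, cells within and outside cluster 4 and other positions of the arm ratio limit.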

Additional observations from a re-analysis of the deposited data

How the results depend on the processing

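Members are chosen on few UMIs, so depth bounds how well the rule finds cells, and p-values cover 2 libraries of 1 labelled replicate. Genes called higher and lower in members numbered 1240 and 1192. They numbered 142 and 76 when cells were thinned to 4000 UMIs, and 309 and 282 within cluster 4, the cluster with the highest PTPRD. DESeq2 called 831 higher (4.87%) and 726 lower (4.25%). The 202 higher 8q genes became 17 with thinning, 70 within the cluster and 47 outside it. The 5 lower 8q genes became 3 with DESeq2, 8 with every gene, 8 against all other cells, 0 with thinning, 9 with the top 10% as members and 3 with the top 2.5%. The 8q median of 0.40 became 0.29 with every gene, 0.35 against all other cells, 0.14 with thinning, 0.27 with the top 10%, 0.13 outside the cluster, and 0.26 to 0.31 with 1 library left out. The 96 lower 8p genes became 3 with thinning and 18 outside the cluster. The 1 higher 8p gene became 0 with thinning, 5 with the top 10%, 2 without CTSB, 0 within the cluster and 8 outside it. The 8p median of -0.54 became -0.16 with thinning, -0.32 with the top 10%, -0.89 within the cluster, -0.11 outside it, and -0.50 to -0.34 with 1 library left out. The 8q share difference of 0.541 percentage points became 0.219 with thinning, 0.344 with the top 10%, 0.767 within the cluster, 0.0934 outside it, and 0.429 to 0.653 with 1 library left out. The 8p share difference of -0.186 became -0.0779, -0.127, -0.264 and -0.0537 in the same order, and -0.225 to -0.147 with 1 library left out. SLC30A8 ranged from 4.23 to 4.48 and PTPRD from 2.79 to 3.22 with 1 library left out. The SLC30A8 log2 fold change of 4.42 became 2.65 with thinning, 3.18 within the cluster and 1.98 outside it. The PTPRD log2 fold change of 3.07 became 1.20, 1.87 and 0.92 in the same order. The share of members above the arm ratio limit averaged 48.8%, and 50.4% and 45.5% at limits of 2.4 and 2.8. Splits by cluster and the arm ratio limits were chosen after seeing the data. Thinning and the splits leave fewer UMIs; otherwise the cause was not tested. Without the library block, 1146 genes were higher and 1106 lower, with 200 8q genes higher and 97 8p genes lower. Of 87 single genes followed through the settings, 82 were the same without the block and 5 were weaker.

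Of 1388 values for 87 single genes, 27 reversed. With thinning these were KCNB2 (0.032), GSR (0.016), PPP1R15A (0.085), HSPA8 (-0.017) and MXI1 (-0.37). Outside the cluster they were AC083967.1 (0.12), GSR (0.047), DCN (0.41) and FTH1 (-0.028). Within it they were CDCA2 (0.35), EIF3K (-0.014), COX7C (-0.039), UQCRH (-0.089), CTSL (-0.24), TOP2A (1.27), CENPF (0.56), MKI67 (1.03), TPX2 (1.03), ALB (-0.24), SERPINA1 (-0.36), COL3A1 (2.12), SPP1 (-0.18), FDXR (-0.012), PSAT1 (0.79), SLC7A11 (0.22), PPP1R15A (0.15) and TXNRD1 (0.040).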

Other observations

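Inside cluster 4, some gene groups differed between members and middle cells in another direction than over all cells. Of 15 tested proliferation genes, 11 were higher in members and 0 lower, with a median log2 fold change of 0.73. MKI67, a nuclear protein of cycling cells, rose by 1.03 ± 0.16 (SE; edgeR adjusted p = 0.000416) and TPX2, a spindle assembly factor, by 1.03 ± 0.15. Of 14 tested integrated stress genes, 6 were higher and 0 lower, with a median of 0.43. PSAT1, an enzyme of serine synthesis, rose by 0.79 ± 0.14. Of all genes tested there, 2.6% were called higher and 2.38% lower. This direction of the proliferation genes was the reverse of that over all cells and outside the cluster, where 12 of 15 were lower, and whether the inside and the outside differ was not tested.

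Some genes outside chromosome 8 differed more widely. NOVA1, an RNA splicing factor of neurons, stood at 26.9 and 31.5 CPM in members of cluster 4 and 4.28 and 4.30 CPM in its middle cells (2.72 ± 0.33). MYO10, a motor protein of filopodia, stood at 14.4 and 13.1 CPM against 1.90 and 1.43 CPM (2.97 ± 0.51). In the other direction, MAGEC2, a cancer-testis gene of the X chromosome, had 0 UMIs in members and 37 in middle cells. TMEM108, a membrane protein of neurons, had 2 UMIs in members and 59 in middle cells, a ratio of 35.4 (95% counting interval 9.38 to 299.2). SPANXD, another cancer-testis gene, was at 2.29 and 1.75 CPM in members and 32.3 and 40.2 CPM in middle cells (-3.92 ± 0.42). GRM8, a glutamate receptor, was at 0.982 and 0.875 CPM against 21.9 and 11.5 CPM (-4.15 ± 0.50).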
